A study of Mus musculus with 16 samples.

Results

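Aoah, Qpct, Tgm2, Hpgd, Hpse, Chst10 and Plpp2 are genes of 7 enzymes that act on lipids, peptides, proteins or glycans. They were picked, out of the 24116 genes of the count table, by symbol and for large rises in dendritic cells (DCs) labelled CKO, in one or more subsets, so the CKO against WT values given here describe the choice and carry no p-value. The 16 libraries came from mouse spleen DCs sorted into 4 subsets (Dec205, pDC, Esamlo and Esamhi), with 2 CKO and 2 WT libraries per subset. CKO labels the cells that the submitters describe as deficient in the transcription factor Etv6, and WT labels wild-type cells. Not given in the sources used here are strain, age, Cre driver, deleted exons and alleles common to both genotypes. Nor is it given whether replicate libraries stem from different mice, so the p-values cover the spread among libraries, which may be technical.

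Etv6 belongs to the ETS family, whose members bind DNA at a GGAA core, and it is known mainly as a repressor. The receptor Dec205 marks cDC1, the classical DCs that cross-present antigen, pDC is the plasmacytoid DC, and the adhesion molecule ESAM divides the cDC2 of the spleen. Enzymes of the kinds described here set how a DC handles bacterial lipids, lipid mediators, chemokines and the sugar coats of cells and matrix.

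The libraries held 14434287 to 20709265 counts. Levels are in CPM, counts scaled to a common library size with TMM factors, and 13790 genes with enough counts were tested with edgeR's quasi-likelihood F test on all 16 libraries. A gene is called at a Benjamini-Hochberg adjusted p under 0.05, and "rose" is used of called genes only. Etv6 itself fell in Dec205, with 205 and 219 CPM in CKO against 337 and 375 CPM in WT (log2 fold change -0.75, SE 0.1, adjusted p = 0.000996). It was not called in pDC, Esamlo or Esamhi, where its log2 fold changes were -0.03, -0.36 and -0.19. Since the deleted exons are not known here and these are counts over the whole gene, they do not check the CKO label outside Dec205. The summed level of 12 cDC1 markers was 17570 to 21080 CPM in Dec205 CKO and 17100 to 17250 CPM in Dec205 WT, and at most 7314 CPM elsewhere. The 12 pDC markers summed to 15930 to 17400 CPM in pDC CKO and 15140 to 15160 CPM in pDC WT, and at most 766.2 CPM elsewhere. The 10 cDC2 markers summed to 3268 to 3339 CPM in Esamhi CKO and 3616 to 3864 CPM in Esamhi WT, to 2358 to 2387 CPM in Esamlo CKO and 2857 to 2874 CPM in Esamlo WT, and to 2464 to 2553 CPM in pDC, so this list does not set Esamlo apart from pDC. Xist, which is transcribed from the silenced X chromosome, averaged 119 to 339.6 CPM in the 4 CKO groups and at most 0.721 CPM in the 4 WT groups, and the Y-linked Ddx3y was the other way round, so sex and genotype cannot be told apart in any comparison of CKO with WT. None of the 7 genes lies on a sex chromosome, which does not tell sex and genotype apart.

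Dec205 was the subset in which all 7 genes rose. In Esamhi 5 rose (Aoah, Qpct, Hpgd, Hpse and Chst10), in Esamlo 4 (Aoah, Qpct, Hpse and Chst10) and in pDC 2 (Plpp2 and Chst10), and none fell in any subset. With 1 library of the subset left out, the counts were 7 in Dec205 (5 without WT replicate 2), 2 in pDC (3 without CKO replicate 2), 1 in Esamlo whichever library was left out, and in Esamhi 2 without either WT library and 3 without either CKO library. DESeq2 called Hpgd and Qpct as well in pDC, 4 in all, and Hpgd as well in Esamlo. Of all tested genes, 3.44% were called higher in CKO in Dec205, 0.674% in Esamhi, 0.457% in Esamlo and 1.47% in pDC; since the genes were picked on these contrasts, nothing is read from the excess. Chst10 alone rose in every subset. Aoah, Qpct and Hpse rose in Dec205, Esamlo and Esamhi, Hpgd in Dec205 and Esamhi, Plpp2 in Dec205 and pDC, and Tgm2 in Dec205 only. Whether a rise differed in size between subsets was not tested. Ranked by fold among the genes called higher, Aoah was number 28 of 474 in Dec205, 11 of 63 in Esamlo and 11 of 93 in Esamhi, and Plpp2 was number 33 of 203 in pDC. Both CKO libraries lay above both WT libraries for all 7 genes in Dec205, Esamlo and Esamhi and for 5 in pDC, against 20.1%, 23.1%, 22.4% and 20.6% of all tested genes. The 7 genes had a median log2 fold change of 3.17 (Dec205), 3.45 (pDC), 1.36 (Esamlo) or 2.44 (Esamhi), where all tested genes had medians between 0 and 0.00681. In pDC, where 5 of the 7 were not called, the median is the value of Qpct, with 24 counts in CKO and 2 in WT. It is therefore no measure of a typical rise there. Since the genes were picked for such rises, nothing is read from the distance to the medians of all genes.

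**Figure D1:**
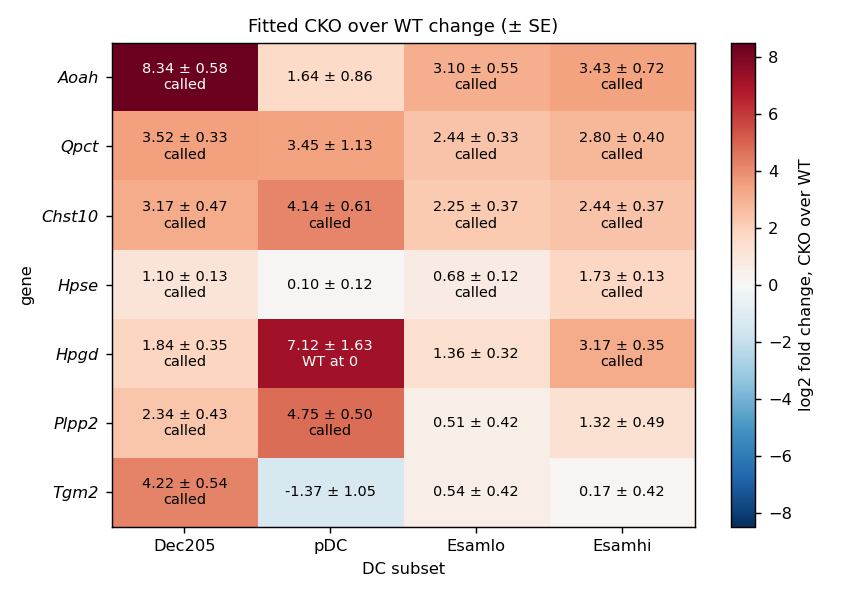
Fitted log2 fold change of CKO over WT (colour and number, ± SE) for each gene (rows) in each subset (columns), with the calls of the edgeR test written in. All 7 genes are called in Dec205, and Chst10 is called in each of the 4 subsets. The large value of Hpgd in pDC rests on a WT group at 0 counts and is no measure of size.

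"Switched on" fits the 7 genes unequally. Aoah had between 0 and 19 counts in every WT library, so its CKO level has no counterpart in any WT subset: the Dec205 CKO mean was 295 times the highest WT group mean. For the other genes the highest CKO group mean, of whichever subset, was divided by the highest WT group mean. This ratio was 11.45 for Qpct (Dec205 CKO), 5.42 for Chst10 (Esamhi CKO), 5.07 for Plpp2 (Dec205 CKO) and 2.56 for Hpgd (Esamlo CKO). For Tgm2 and Hpse it was 1.13 and 1.07, because WT Esamhi already held 1195 CPM of Tgm2 and WT pDC 332 CPM of Hpse. The order of the subsets by mean level was the same in CKO and WT for Qpct, Tgm2, Hpgd and Chst10.

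**Figure D2:**
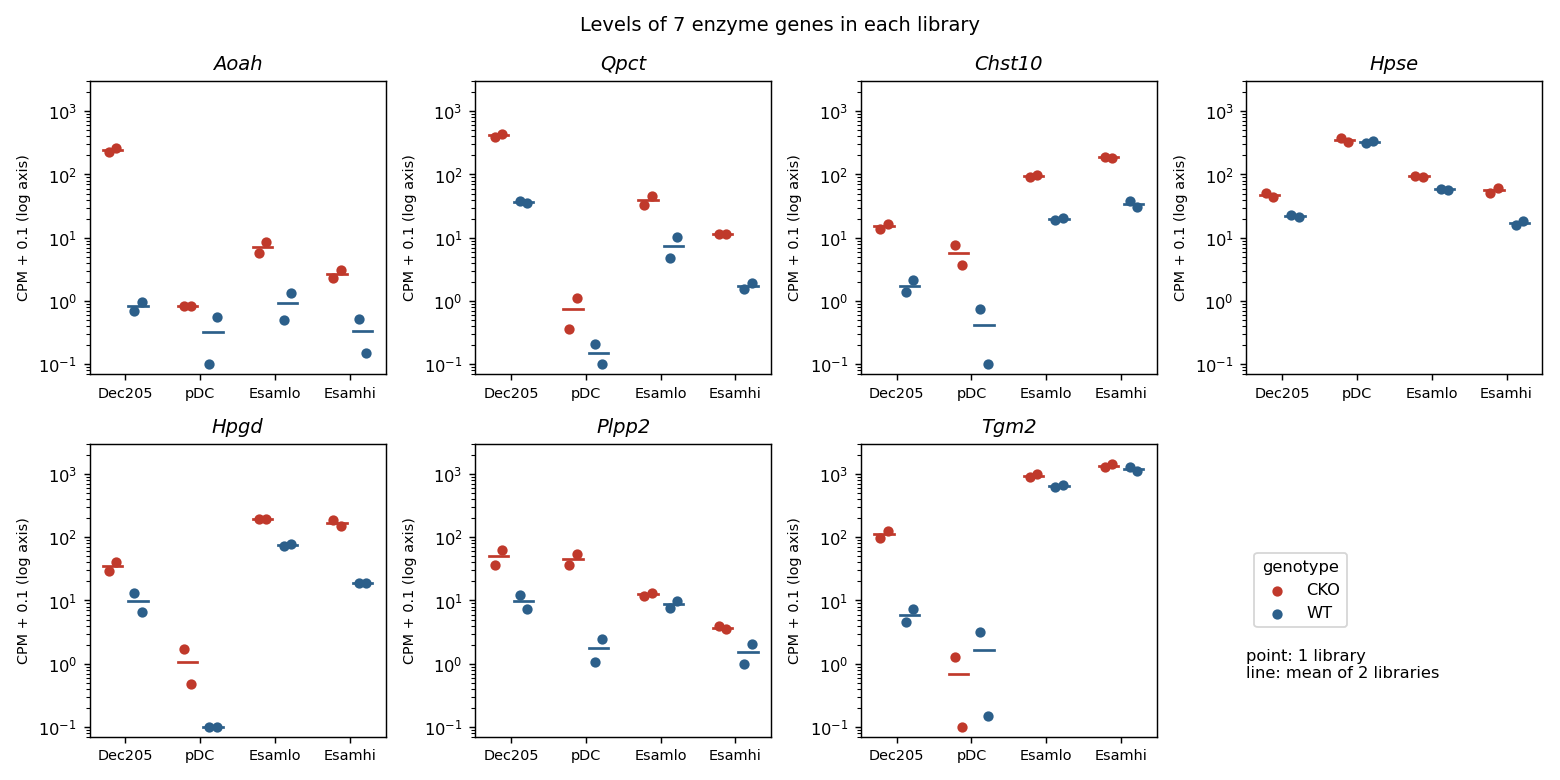
Level of each gene in CPM (log axis, 0.1 added) in each subset, CKO left of WT. Each point is 1 library and each line the mean of 2. Aoah stands at 225 and 264 CPM in Dec205 CKO and below 9 CPM in every other library, whereas Tgm2 in Esamhi and Hpse in pDC are high in both genotypes.

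WT levels were not what the genes were picked on, although a low WT level favours a large rise and the WT libraries enter both. Between WT Dec205 and WT pDC 6 of the 7 genes differed (47.6% of all tested genes did), and between WT Dec205 and WT Esamlo 5 (34.2%). Between WT Dec205 and WT Esamhi 5 differed (37.4%), between WT pDC and WT Esamlo 6 (45.7%), between WT pDC and WT Esamhi 5 (47.1%), and between WT Esamlo and WT Esamhi 4 (5.81%). Aoah differed in none of these comparisons, though DESeq2 called it lower in WT pDC than in WT Dec205 and WT Esamlo, and lower in WT Esamhi than in WT Dec205 (adjusted p = 0.033, 0.0203 and 0.0431).

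The first group of enzymes acts on lipids. Aoah (Entrez 27052) encodes acyloxyacyl hydrolase, which removes acyl chains from the lipid A of bacterial lipopolysaccharide and so inactivates it. The gene lies on the plus strand of chromosome 13 from 20794103 to 21036617 (GRCm38). In Dec205 it had 225 and 264 CPM in the CKO libraries, against 0.607 and 0.879 CPM in the WT libraries, a 323-fold rise (log2 fold change 8.34, SE 0.58). Esamlo had 5.59 and 8.36 CPM in CKO against 0.398 and 1.26 CPM in WT (3.10, SE 0.55), and Esamhi 2.24 and 2.99 CPM in CKO against 0.426 and 0.0519 CPM in WT (3.43, SE 0.72). The groups did not overlap in these 3 subsets, but the Esamlo and Esamhi levels were a small part of that in Dec205 CKO. In pDC the values were 0.740 and 0.750 CPM in CKO and 0 and 0.457 CPM in WT, which is 14 counts in each CKO library and 0 and 9 counts in the WT libraries, and this was not called. The Dec205 call held with any 1 library left out (log2 fold change 8.12 to 8.64); those in Esamlo and Esamhi were lost whichever library of the subset was dropped, with log2 fold changes of 2.46 to 4.10 and 2.60 to 5.48.

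The promoter of Aoah is shown because it holds, within 20 bases before the start used for the promoter, the 8-letter ETS motif CCGGAAGT on the gene's own strand. The sequence is the 250 bases before that start, chr13:20793863-20794112, plus strand, from RefSeq on GRCm38.p6, with the motif in capitals. That start lies a few bases inside the gene span given above, which begins at 20794103, so the last printed bases fall within the span.
Aoah: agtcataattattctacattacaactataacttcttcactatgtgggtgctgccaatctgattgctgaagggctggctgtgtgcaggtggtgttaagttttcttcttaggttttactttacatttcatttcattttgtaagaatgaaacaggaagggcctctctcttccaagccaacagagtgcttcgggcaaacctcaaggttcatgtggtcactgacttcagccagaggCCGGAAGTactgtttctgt
The motif starts at position -19, counted back from -1 at the base before the start used for the promoter. On either strand it was found in 3.89% of the 32851 promoters of 300 bases (250 before and 50 after the start), and in none of the promoters of Hpgd, Hpse, Chst10 and Plpp2; the promoters of 5 of the 7 genes were matched. The bare core GGAA, in 96% of promoters and itself a part of both printed motifs, was in all 5. A match is a description and does not show that a factor binds there.

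Hpgd (Entrez 15446), on the plus strand of chromosome 8 from 56294552 to 56321046, encodes 15-hydroxyprostaglandin dehydrogenase, the enzyme that begins the breakdown of prostaglandin E2. Esamhi had 185 and 149.9 CPM in CKO against 18.5 and 18.7 CPM in WT, an 8.99-fold rise (log2 fold change 3.17, SE 0.35) that held with any 1 library left out. Dec205 had 29.2 and 40.6 CPM in CKO against 13.1 and 6.36 CPM in WT (1.84, SE 0.35). That call was lost without WT replicate 2, where the log2 fold change was 1.41, and in the fit of the subset's own libraries. Esamlo had 193 CPM in both CKO libraries against 72.5 and 78.1 CPM in WT (1.36, SE 0.32), which was not called although the groups lay far apart. In pDC no read was counted in WT, and CKO had 30 and 7 counts, which was not called either. With a floor of 3 counts over both WT libraries together, the pooled CKO counts were 12.6-fold higher. Other settings did call these 2 rises: DESeq2 both, the fit of the subset's own libraries that in Esamlo, and library size only or the fit without CKO replicate 2 that in pDC. The CKO levels of Esamlo and Esamhi lay within 1.5 times of each other, a difference that was not tested. In WT, Esamlo exceeded Esamhi 4.04-fold (log2 fold change 2.01, SE 0.33, adjusted p = 0.00412, and adjusted p = 0.055 without Esamhi WT replicate 1). Both WT Dec205 libraries lay below both WT Esamhi libraries, a difference just short of the threshold (log2 fold change -0.94, SE 0.35, adjusted p = 0.0535) and past it with library size only (adjusted p = 0.032), with DESeq2 (0.0198) and without Dec205 WT replicate 1 (log2 fold change -1.56, adjusted p = 0.00814). WT Dec205, Esamlo and Esamhi all exceeded WT pDC. With the same floor of 3 counts over both WT pDC libraries together, the folds were 122, 961 and 239.

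Of 31 other genes of prostaglandin and leukotriene metabolism, 28 were tested. Tbxas1, thromboxane synthase, rose in Dec205, with 171 ± 23.8 CPM in CKO and 49.0 ± 0.409 CPM in WT (SD, n = 2 each; log2 fold change 1.81, adjusted p = 0.00555). In pDC Ptger4, a prostaglandin E2 receptor, rose to 460.4 ± 17.6 CPM in CKO, against 240.2 ± 8.37 CPM in WT (0.94, adjusted p = 0.000605). None was called in Esamlo or Esamhi, and none fell. Of 21 genes of lipopolysaccharide sensing and inactivation, 18 were tested. In Dec205 3 rose and 1 fell: Itgam, the CD11b chain, had 16.4 ± 7.90 CPM in CKO and 6.56 ± 3.06 CPM in WT (1.35, adjusted p = 0.0262), Cd180, a Toll-like receptor relative, 132 ± 21.9 CPM in CKO and 68.3 ± 15.8 CPM in WT (0.95, adjusted p = 0.0125), and Cd14, the lipopolysaccharide co-receptor, fell to 29.6 ± 12.8 CPM in CKO, against 69.0 ± 4.65 CPM in WT (-1.22, adjusted p = 0.0358). The third rise was that of Ly86. Itgam was also the 1 gene of the list that rose in pDC, with 28.3 ± 4.06 CPM in CKO and 4.59 ± 0.832 CPM in WT (6.13-fold, adjusted p = 0.00084).

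Plpp2 (Entrez 50784), on the minus strand of chromosome 10 from 79526424 to 79533787, encodes a membrane phosphatase that removes the phosphate of phosphatidic acid, lysophosphatidic acid and sphingosine 1-phosphate. It rose 27-fold in pDC, to 36.6 and 54.6 CPM in CKO against 0.962 and 2.39 CPM in WT (log2 fold change 4.75, SE 0.50), and that call held with any 1 library left out (4.25 to 5.55). In Dec205 it had 36.1 and 63.2 CPM in CKO against 12.3 and 7.30 CPM in WT (2.34, SE 0.43). That call was lost without WT replicate 2, where the log2 fold change was 1.89, and in the fit of the subset's own libraries. Esamlo had 11.7 and 12.99 CPM in CKO against 7.56 and 9.76 CPM in WT, and Esamhi 3.87 and 3.38 CPM in CKO against 0.906 and 1.97 CPM in WT, and neither was called. In WT, Dec205 and Esamlo were not distinguishable (adjusted p = 0.789), nor were pDC and Esamhi (adjusted p = 0.752), and Plpp2 was 5.80-fold higher in Dec205 than in pDC (adjusted p = 0.000711). The pDC CKO libraries lay within the range of the Dec205 CKO libraries.

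The related phosphatases Plpp1 and Plpp3 were not called in any subset. Plpp1 had 213 ± 4.65 CPM in Dec205 CKO and 173 ± 9.15 CPM in Dec205 WT (adjusted p = 0.413), and at most 3.48 CPM in the mean of any other group. Plpp3 averaged at most 1.25 CPM in every group. Of 35 further genes of this pathway, these included, 31 were tested, and 2 rose and 2 fell in Dec205. S1pr3, a sphingosine 1-phosphate receptor, had 10.8 and 6.22 CPM in Dec205 CKO and no count in WT (adjusted p = 0.00667). With a floor of 3 counts over both WT libraries together it was 81.7-fold higher. Enpp2, autotaxin, which makes lysophosphatidic acid, had 1.74 and 2.33 CPM in CKO and no count in WT (adjusted p = 0.0358). With the same floor it was 18.7-fold higher. Lpar6, a lysophosphatidic acid receptor, fell to 87.8 ± 9.04 CPM in CKO, against 210.3 ± 18.3 CPM in WT (adjusted p = 0.00294), and Sgpl1, the lyase of sphingosine 1-phosphate, to 171 ± 16.5 CPM in CKO, against 242 ± 4.10 CPM in WT (adjusted p = 0.0368). No gene of the list was called in pDC, Esamlo or Esamhi.

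The second group acts on peptides and proteins. Qpct (Entrez 70536), on the plus strand of chromosome 17 from 79051906 to 79090378, encodes the secreted glutaminyl cyclase, which turns an N-terminal glutamine of peptides and chemokines into pyroglutamate. In Dec205 it had 395 and 439 CPM in CKO against 37.6 and 35.3 CPM in WT, an 11.5-fold rise (log2 fold change 3.52, SE 0.33). Esamlo had 33.0 and 46.1 CPM in CKO against 4.66 and 10.02 CPM in WT (2.44, SE 0.33), and Esamhi 11.3 and 11.5 CPM in CKO against 1.44 and 1.82 CPM in WT (2.80, SE 0.40). None of these groups overlapped. The calls in Dec205 and Esamlo held with any 1 library left out, and that in Esamhi was lost without either WT library. In pDC CKO had 5 and 19 counts and WT 2 and 0 counts, a ratio of 12.3 that rests on few counts and was not called.

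In WT the 4 subsets formed a ladder of Qpct, with each step called. Dec205 exceeded Esamlo (log2 fold change 2.32, SE 0.34, adjusted p = 0.00017), Esamlo exceeded Esamhi 4.45-fold (adjusted p = 0.00761), and pDC, with 2 counts, was below Esamhi (adjusted p = 0.000921). The step between Esamlo and Esamhi was lost without Esamlo WT replicate 2 or without either Esamhi WT library. With 1 library left out its log2 fold change was 1.51 to 2.61. The step was also lost in the fit of the WT libraries alone (adjusted p = 0.0557). Qpctl, the paralogous cyclase of the Golgi, was not called in any subset: it had 14.9 ± 1.86 CPM in Dec205 CKO and 23.6 ± 11.4 CPM in Dec205 WT (log2 fold change -0.66, adjusted p = 0.255), and 10.3 ± 3.84 CPM in Esamlo CKO and 10.5 ± 2.01 CPM in Esamlo WT. Of 12 genes of pyroglutamate formation and its substrates 10 were tested, and the 1 called was Sirpa, the receptor of CD47, which fell in Dec205 (25.2 ± 0.282 CPM in CKO, 57.4 ± 33.4 CPM in WT, adjusted p = 0.0183).

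Tgm2 (Entrez 21817), on the minus strand of chromosome 2 from 158116405 to 158146392, encodes transglutaminase 2, which crosslinks proteins between glutamine and lysine side chains. It rose 18.6-fold in Dec205, to 97.8 and 123 CPM in CKO against 4.48 and 7.30 CPM in WT (log2 fold change 4.22, SE 0.54), with a range of 3.93 to 4.62 over the fits that left out 1 library. In Esamlo it had 900.5 and 980.3 CPM in CKO against 623 and 674 CPM in WT (0.54, SE 0.42) and in Esamhi 1275 and 1422 CPM in CKO against 1266 and 1124 CPM in WT (0.17, SE 0.42), neither of them called. Of 12 alternative fits, 11 also left Tgm2 uncalled in Esamlo and the remaining fit called it higher, with log2 fold changes of 0.47 to 0.60. pDC had 1.16 and 0 CPM in CKO and 3.04 and 0.0508 CPM in WT, with overlapping groups and a direction that turned from a log2 fold change of -1.37 to 3.36 without WT replicate 1. In WT, Tgm2 was lower in Dec205 than in Esamlo (log2 fold change -6.77, SE 0.57, adjusted p = 1.92e-06) and Esamhi (-7.65, SE 0.59, adjusted p = 6.54e-07). WT Esamlo and WT Esamhi were not distinguishable (adjusted p = 0.292). WT Dec205 exceeded WT pDC at an adjusted p of 0.0396. That call was lost without Dec205 WT replicate 2 or pDC WT replicate 2. The log2 fold changes were 0.96 to 6.69 when 1 library was left out. Lost too was the call with library size only (adjusted p = 0.0615), no low-count filter (0.128), DESeq2 (0.245) and the WT libraries alone (0.0622). Both Dec205 CKO libraries stayed below every Esamlo and Esamhi library of either genotype.

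Tgm1, another transglutaminase, had no count in any Dec205 or pDC library and averaged at most 2.58 CPM in Esamlo and Esamhi. Of 16 transglutaminases and partners 13 were tested. In Dec205 Anxa1, an annexin, rose to 260.04 ± 26.5 CPM in CKO, against 193 ± 9.90 CPM in WT (adjusted p = 0.0285), and Itgb1, the integrin beta 1 chain, fell to 523 ± 36.7 CPM in CKO, against 724 ± 14.0 CPM in WT (adjusted p = 0.0171). No other was called in any subset.

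The third group acts on glycans. Hpse (Entrez 15442), on the minus strand of chromosome 5 from 100679484 to 100719716, encodes heparanase, the enzyme that cuts heparan sulfate chains. Its rises were the smallest of the 7 in Dec205 and, among called genes, in Esamlo and Esamhi, and the replicates lay close together. Esamhi had 51.3 and 61.2 CPM in CKO against 15.7 and 18.2 CPM in WT (log2 fold change 1.73, SE 0.13), Dec205 51.5 and 43.5 CPM in CKO against 22.8 and 21.5 CPM in WT (1.10, SE 0.13) and Esamlo 94.2 and 92.7 CPM in CKO against 59.7 and 57.0 CPM in WT (0.68, SE 0.12). The first 2 calls held with any 1 library left out, and that in Esamlo with none (0.65 to 0.72). The Dec205 call was lost in the fit of that subset's own libraries. In pDC, where Hpse was most abundant, CKO had 379.6 and 331 CPM and WT 320.2 and 343 CPM, with overlapping groups (0.10, SE 0.12). WT pDC exceeded WT Esamlo 5.68-fold (adjusted p = 6.76e-09) and WT Dec205 was lower than WT Esamlo (log2 fold change -1.40, adjusted p = 3.68e-06). WT Dec205 exceeded WT Esamhi 1.31-fold (adjusted p = 0.035), a call lost without either Dec205 WT library or Esamhi WT replicate 1. With 1 library left out the log2 fold change was 0.28 to 0.49. The call was also lost with library size only (adjusted p = 0.139) and with no low-count filter (adjusted p = 0.0552).

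The Hpse promoter is shown because it is the 1 of the 5 matched that holds the composite motif of ETS and IRF factors, which 2.72% of promoters hold on either strand. The sequence is the 250 bases before the start, chr5:100719717-100719966, minus strand, from RefSeq on GRCm38.p6, with the motif, which starts at position -80, in capitals.
Hpse: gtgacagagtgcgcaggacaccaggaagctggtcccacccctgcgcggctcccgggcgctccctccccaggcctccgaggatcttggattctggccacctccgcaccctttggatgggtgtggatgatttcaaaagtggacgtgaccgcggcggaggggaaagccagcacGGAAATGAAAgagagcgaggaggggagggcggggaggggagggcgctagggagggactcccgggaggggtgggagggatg
The PU.1-type ETS motif GAGGAAGT (3.2% of promoters) was in none of the 5, and the IRF motif, a spaced pair of GAAA (3.44%), in that of Aoah only, after the start at position 19 on the opposite strand.

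Of 42 other genes of heparan sulfate synthesis and breakdown 31 were tested, and all calls were in Dec205, where 2 rose and 4 fell. Sdc1, the core protein syndecan 1, had 7.02 and 9.27 CPM in CKO and 1.59 and 0 CPM in WT (adjusted p = 0.0288), and Hs2st1, a 2-O-sulfotransferase, 20.2 ± 0.954 CPM in CKO and 8.80 ± 3.65 CPM in WT (adjusted p = 0.0429). Sulf2, which removes sulfate from the chains, fell to 42.8 ± 26.3 CPM in CKO, against 108 ± 20.1 CPM in WT (adjusted p = 0.0368). Gpc2, a glypican, had no count in CKO and in WT 0 and 3.18 CPM, so its call (adjusted p = 0.0428) rests on 1 library. Hpse2, the inactive relative of heparanase, averaged at most 0.237 CPM in any group and was not tested.

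Chst10 (Entrez 98388), on the minus strand of chromosome 1 from 38863867 to 38898177, encodes the sulfotransferase that completes the HNK-1 carbohydrate by sulfating its terminal glucuronic acid. Esamhi had the highest levels, 187 and 185 CPM in CKO against 38.1 and 30.5 CPM in WT (log2 fold change 2.44, SE 0.37). Esamlo had 92.1 and 97.4 CPM in CKO against 19.3 and 20.5 CPM in WT (2.25, SE 0.37), Dec205 13.7 and 16.5 CPM in CKO against 1.29 and 2.03 CPM in WT (3.17, SE 0.47), and pDC 7.72 and 3.59 CPM in CKO against 0.641 and 0 CPM in WT (4.14, SE 0.61). No groups overlapped. The calls in Dec205 and pDC held with any 1 library left out, although in pDC the log2 fold change then lay between 3.12 and 9.62, the highest being without WT replicate 1, which leaves the WT library at 0. The pDC call was lost in the fit of that subset's own libraries. Those in Esamlo and Esamhi were each lost whichever library of the subset was dropped, at log2 fold changes of 2.203 to 2.29 and 2.29 to 2.60. In WT, Esamlo and Esamhi were not distinguishable (adjusted p = 0.267). WT Dec205 was lower than WT Esamlo (log2 fold change -3.57, SE 0.46, adjusted p = 7.09e-05). It was higher than WT pDC (2.39, SE 0.73, adjusted p = 0.0171). The call against pDC was lost without Dec205 WT replicate 2 or pDC WT replicate 2. It was also lost in the fit of the WT libraries alone (adjusted p = 0.0513). Without 1 library its log2 fold change lay between 1.38 and 7.88, again highest without pDC WT replicate 1.

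Of the related sulfotransferases, Chst8 had no count in any library and Chst9 1 count in all, and both went untested. Of 21 genes of carbohydrate sulfation and HNK-1 synthesis 15 were tested and none rose. Papss2, which makes the sulfate donor that sulfotransferases use, fell in Dec205 to 21.8 ± 2.51 CPM in CKO, against 90.8 ± 3.33 CPM in WT (log2 fold change -2.06, adjusted p = 8.11e-05), and in pDC to 0.159 ± 0.149 CPM in CKO, against 1.63 ± 0.347 CPM in WT (-3.30, adjusted p = 0.0018). Impad1, a phosphatase of the Golgi that clears the by-product of sulfation, fell in pDC to 37.0 ± 0.317 CPM in CKO, against 57.5 ± 7.06 CPM in WT (adjusted p = 0.03).

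Over the 7 pathway lists together, 146 other genes were tested. In Dec205 9 rose and 10 fell, in pDC 2 rose and 2 fell, and in Esamlo and Esamhi none was called. Of all tested genes, the share called in either direction was 6.78% (Dec205), 1.85% (pDC), 0.551% (Esamlo) or 0.877% (Esamhi); of the 146, the shares were 13% in Dec205 and 2.74% in pDC. The lists' median log2 fold changes ran between -0.1 and 0.18 in Dec205, -0.2 and 0.1 in pDC, -0.08 and 0.25 in Esamlo, and 0.04 and 0.22 in Esamhi.

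**Figure D3:**
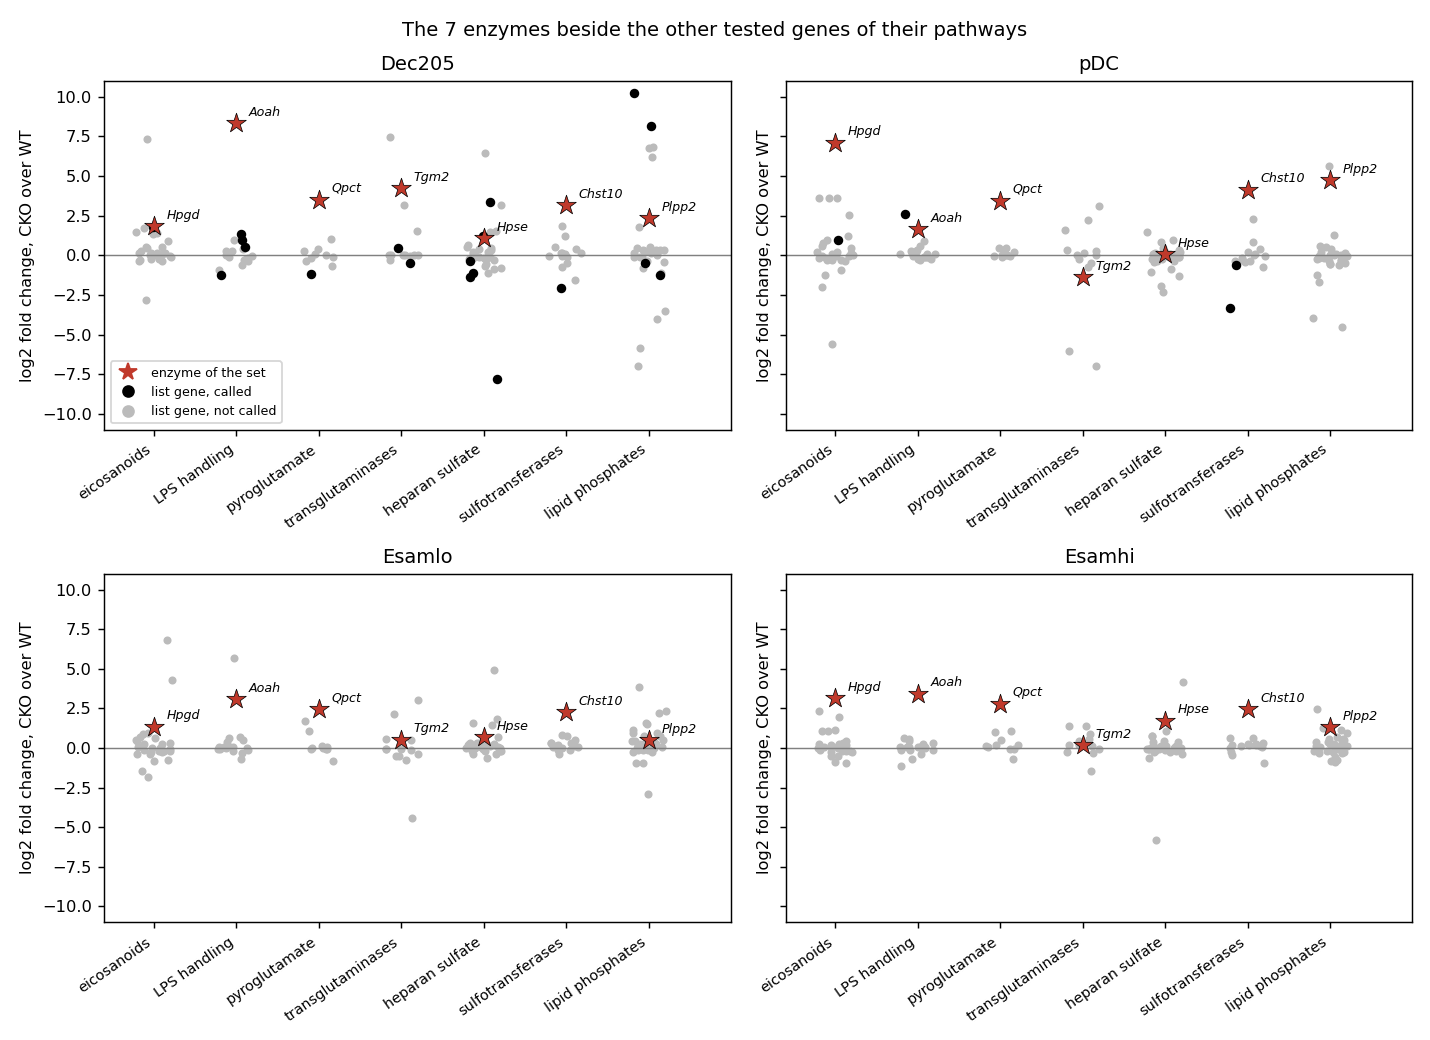
Log2 fold change of CKO over WT (vertical axis) for the tested genes of each pathway list (horizontal axis), 1 panel per subset; stars are the 7 enzymes, black points other called genes and grey points genes not called. In Esamlo and Esamhi no gene of the 7 lists besides the enzymes is called. Large grey values are mostly genes with few counts.

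Markers of other cells moved with genotype in some of the same libraries. The 12 B cell markers summed to 824 and 415 CPM in Dec205 CKO against 209.5 and 177 CPM in WT, with 3 called higher and none lower. Aoah in those CKO libraries was 225 and 264 CPM, and Qpct 395 and 439 CPM. In Esamlo the B cell sums were 1063 and 431 CPM in CKO and 272.7 and 392.2 CPM in WT, with no marker called. The 14 monocyte markers summed to 5804 and 7157 CPM in Dec205 CKO and 4633 and 4108 CPM in WT, with 4 called higher and 1 lower, and 1 was higher in CKO in each other subset. Of the 12 pDC markers 6 were higher in Dec205 CKO, with sums of 494.3 to 584 CPM in CKO and 284.3 to 289.1 CPM in WT. Cox6a2 of that list was also higher in CKO in Esamlo and Esamhi, and Lag3 was lower in Esamhi CKO. Of the 10 cDC2 markers, Esam, Sirpa and Tbc1d8 were lower and Cd4 higher in Dec205 CKO. Their sums were 547.7 to 564.4 CPM in Dec205 CKO and 801.3 to 804.6 CPM in Dec205 WT. In Esamhi CKO Cd4 was lower, and Irf8 of the cDC1 markers was higher. The 14 macrophage markers summed to 141.5 to 164.3 CPM in Dec205 CKO and 238.2 to 271 CPM in WT, and the 13 neutrophil markers to 180.5 to 196.6 CPM in Esamhi CKO and 89.19 to 113.1 CPM in WT, with none called in either list. The NK cell, T cell, and erythroid with platelet lists summed to at most 156.9 CPM in any library; in Dec205 Cd5 and Klrb1c were higher and Bcl11b lower in CKO, and no other gene of these lists was called in any subset. The part of these cells in the rises was not tested, and in bulk samples fewer cells of a type and less RNA per cell cannot be told apart.

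**Figure D4:**
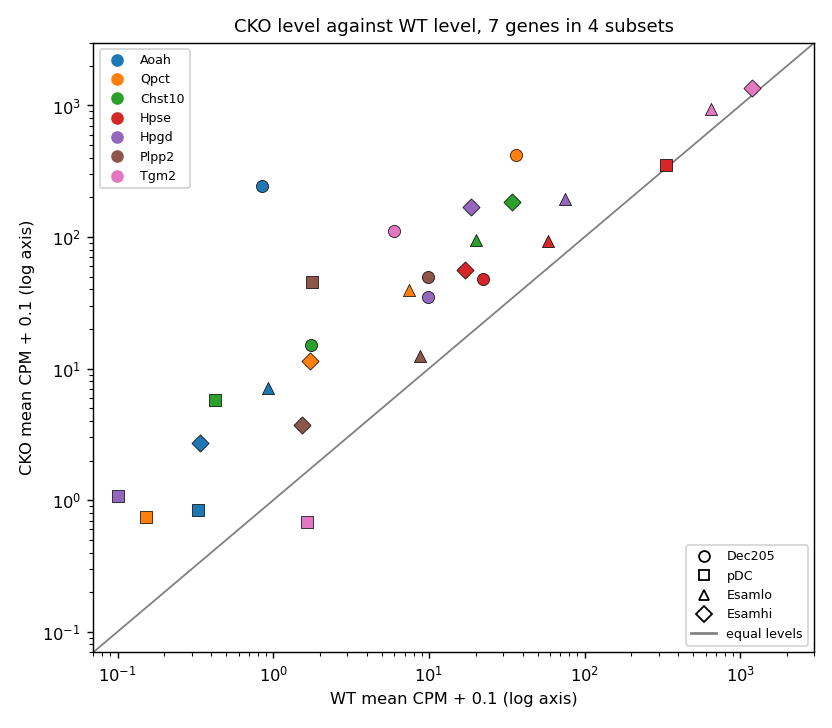
Mean CKO level against mean WT level (CPM, 0.1 added, log axes) for each gene (colour) in each subset (shape); the line marks equal levels. All but Tgm2 in pDC lie above the line, Aoah in Dec205 furthest, and Hpse in pDC and Tgm2 in Esamhi lie close to it.

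Likeness of pattern was measured as Pearson's r of log2 CPM over the 16 libraries, which share subsets and genotypes, among 10849 named genes. Most like Aoah were Mfsd10 (r = 0.898), Ust (0.892) and Mitd1 (0.884). Over the 8 group means they were Pou2af1 (0.946), Hexa (0.942) and Ms4a1 (0.937), of which Pou2af1 and Ms4a1 are genes of B cells. By Spearman's rank correlation over the 16 libraries they were Tmem243 (0.9353), Cpsf3 (0.9265) and Crim1 (0.8647). Other measures are printed for Aoah only. With 10849 genes on so few points, no source of the Aoah reads is inferred from them. Most like Qpct over the libraries were Btbd1 (0.959), Tspan17 (0.951) and Sult1a1 (0.949). Tgm2 was most like Zcchc11 (0.968), Ifih1 (0.967) and Card9 (0.966), and Hpgd most like Nrp2 (0.964), AB124611 (0.959) and Lfng (0.958). For Hpse they were Csf2rb2 (0.973), Notch1 (0.960) and Lat2 (0.960), for Chst10 Cabin1 (0.935), Oas3 (0.935) and Itgax (0.933), and for Plpp2 Psmb10 (0.884), Rnaseh1 (0.854) and Lmo1 (0.853). Among the 7 themselves the closest pairs were Tgm2 with Hpgd (0.885), Hpgd with Chst10 (0.876) and Tgm2 with Chst10 (0.860), all high in the ESAM subsets, and Aoah with Qpct (0.814), both highest in Dec205 CKO. Hpse ran against Tgm2 (-0.626) and Hpgd (-0.599), being highest in pDC.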

How the data were processed

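The authors deposited raw counts per gene as whole numbers, 1 column per library, per the file headers. Per the submitters' processing notes, bcl2fastq, Trimmomatic 0.36, Bowtie2 2.2.9 and the build mm10 were used; not given in the sources used here: counting tool, strand setting, annotation. Libraries were made from sorted cells with SMART-seq v4 cDNA, per the labels' protocols, a kit that amplifies by PCR, uses no molecular identifiers and does not mark strand. The spans of Aoah and Gm32242, of Chst10 and Gm51581 and of Plpp2 and Mir6909 overlap. Reads from any bases that both genes of a pair share therefore cannot be told apart by strand. Whether exons of these pairs overlap was not checked.

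Genes were kept by filterByExpr, which all 7 enzyme genes passed, and scaled by TMM (factors 0.913 to 1.1). The two-sided quasi-likelihood F test came from edgeR 4.0.16 in R 4.3.3, with robust dispersions, 1 coefficient per group and 8 residual degrees of freedom. DESeq2 1.42.0 was an alternative. Standard errors come from the F statistic. The fit was tested on simulated data with changes in Dec205 CKO only and equal mean levels in the groups otherwise. That test does not check groups near 0 counts or the subset differences of the real data. Log2 CPM used a prior count of 2. Folds over a floor (3 counts over the 2 libraries of a group without counts) allow for counting error in that group only. They do not allow for spread between libraries. Positions and promoters are from RefSeq GRCm38.p6 (mm10), matched by Entrez identifier for 24061 of 24116 genes, and strand from GENCODE. The genes and lists were chosen with earlier results of these data known; motifs and neighbours were added after seeing the data. Named list genes are 7 paralogs and, per list and comparison, up to 2 called rises and falls of largest size. The likeness rule names 3 genes each by Pearson's r over the libraries. For Aoah further measures were added. Replicate numbers were taken as names only. The correlation of deviations between CKO and WT within subsets was -0.0692 to 0.0169. It does not show whether a number marks the same mouse or batch across subsets.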

Additional observations from a re-analysis of the deposited data

How the results depend on the processing

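Each group has 2 libraries, which limits every value here, and genes with few counts, such as Aoah in WT, moved most. With DESeq2's size factors for scaling, library size only, no low-count filter or the stricter filter (a CPM of 1 in 4 libraries), every count of calls stayed within 1.5 times the main one. DESeq2 called 1715 (Dec205), 546 (pDC), 254 (Esamlo) and 307 (Esamhi) genes for CKO against WT, where the main counts were 935, 255, 76 and 121, and 1404 for WT Esamlo against WT Esamhi (main 801). Fits of the subset's own libraries called 136, 91, 126 and 578 genes in the same order of subsets, and glmTreat against a 1.5-fold change 257, 114, 20 and 33. With 1 library left out, 585 to 1328 genes were called in Dec205, 176 to 281 in pDC, 28 to 38 in Esamlo, 44 to 48 in Esamhi and 303 to 501 between WT Esamlo and WT Esamhi. Of the 7 enzyme genes, 4 were called higher in Dec205 and 1 in pDC from the subset's own libraries, 4 in pDC with DESeq2 and 1 in Esamlo with glmTreat; with 1 library left out, 5 to 7 in Dec205, 2 to 3 in pDC, 1 in Esamlo and 2 to 3 in Esamhi.

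Directions turned only for values that were not called. With 1 library left out, the CKO against WT log2 fold change in pDC ran from -7.73 to 3.36 for Tgm2 and from -0.0102 to 0.197 for Hpse. WT Dec205 against WT Esamlo ran from -0.75 to 0.90 for Aoah and from -0.26 to 0.50 for Plpp2, and WT pDC against WT Esamhi from -5.09 to 2.02 for Aoah (0.12 with library size only) and from -0.59 to 0.89 for Plpp2. The cause was not tested. A replicate block was fitted although the numbers are not known to pair the libraries. It gave 971, 260, 86 and 136 called genes in Dec205, pDC, Esamlo and Esamhi, and 7, 2, 4 and 5 of the 7 genes. Of the fits of single enzyme genes for CKO against WT, 290 kept direction and call, 35 lost the call, 7 gained it and 2 turned; for WT pairs the numbers were 424, 21, 8 and 9. Pathway genes were not refitted under these alternatives.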

Other observations

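The measured genes next to the 7 enzymes on either side were compared in the same fit, chosen by position after the data were seen. Of 56 comparisons of CKO with WT (14 neighbours in 4 subsets), 3 were called (5.36%), all of them rises. By subset, 2 of the 14 were called in Dec205, 1 in pDC and 0 in Esamlo and Esamhi. Of all tested genes, 6.78%, 1.85%, 0.551% and 0.877% were called in these subsets, in the same order. With so few neighbours, nothing is read from the difference. Prkd3, a protein kinase 31089 bases from Qpct, had 124 ± 17.8 CPM in Dec205 CKO and 70.47 ± 2.202 CPM in Dec205 WT (SD, n = 2 each; log2 fold change 0.81, SE 0.20, adjusted p = 0.0285), where Qpct rose by 3.52. Cep44, a centrosome protein gene 210469 bases from Hpgd, had 8.46 ± 1.60 CPM in Dec205 CKO and 3.59 ± 1.15 CPM in Dec205 WT (1.24, SE 0.30, adjusted p = 0.0267). Mier2, 6457 bases from Plpp2, had 45.2 ± 3.78 CPM in pDC CKO and 21.1 ± 2.53 CPM in pDC WT (1.10, SE 0.24, adjusted p = 0.036), where Plpp2 rose by 4.75. The genes on either side of Aoah, Elmo1 and Trim27, were not called in any subset (log2 fold changes -0.23 to 0.02), and nor were those beside Tgm2, Hpse and Chst10.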
